A study of Mus musculus with 6 samples.

Results

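The genes described here are the ATP-binding cassette (ABC) transporter family in testes of juvenile mice, taken as every protein-coding gene of the GENCODE M21 annotation whose symbol begins with Abc, a subfamily letter from a to g, and a digit. The rule found 50 genes among the 55487 gene identifiers of the count table, and 45 of them were expressed highly enough to be tested. Testes of mice at postnatal day 19 were profiled by sequencing of polyadenylated RNA, with 3 libraries labelled control and 3 labelled dsfb, and the design text states that the testes came from different mice. Per the title of the series, dsfb mice carry the SFB allele on both copies of Hormad1 and Hormad2, whose products sit on the axes of meiotic chromosomes. The sources used here do not state the genotype of the controls beyond the word control, the strain, or what the SFB allele changes. The tissue is whole testis, so the cells that made an RNA were not separated, and fewer cells of a type and less RNA per cell cannot be told apart.

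ABC proteins couple ATP hydrolysis to the movement of lipids, sterols, peptides, conjugated drugs or metals across membranes. Subfamilies A and G carry mainly lipids and sterols, subfamily B drugs, phospholipids and mitochondrial substrates, subfamily C conjugated anions, and subfamily D acyl chains into peroxisomes, while the E and F proteins have no membrane part and act on ribosomes. In the testis, efflux pumps of this family guard the blood-testis barrier, Sertoli cells use its sterol exporters, and several members of the A and C subfamilies are transcribed mainly in germ cells.

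The control libraries held 23983373 to 27707291 counted reads and the dsfb libraries 15335130 to 17306363. In CPM, which are reads per 1e6 of the TMM-scaled library, the control values of Hormad1 were 446, 486 and 209 for replicates 1, 2 and 3 and the dsfb values 217, 246 and 243 (log2 -0.69, edgeR adjusted p = 0.0597, or 1.57e-10 without control replicate 3). Hormad2 fell by 0.96 on the log2 scale (edgeR adjusted p = 0.000757). Counts over whole genes do not check an allele of unstated kind. Control replicate 3 stood apart, with a summed 909 CPM over 10 spermatid markers against 159 and 178 CPM in control replicates 1 and 2. Some values without it are given below. Globin and other red blood cell transcripts summed to 21.3 CPM in control replicate 3 and 44.2 CPM in dsfb replicate 3, against 218 to 334 CPM in the other libraries.

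The RefSeq start regions of the tandem genes Abca14, Abca15 and Abca16 and of Abca17 are shown because these members had the lowest dsfb-to-control ratios of subfamily A. Each stretch runs from 100 bases before to 25 bases after the annotated start in GRCm38.p6, 5′ to 3′ on the strand of the gene, and capitals mark matches to AACNG, the core recognised by MYB-type factors, on either strand (CNGTT where the match is on the other strand).
Abca14 (chr7:120203864-120203988, plus strand): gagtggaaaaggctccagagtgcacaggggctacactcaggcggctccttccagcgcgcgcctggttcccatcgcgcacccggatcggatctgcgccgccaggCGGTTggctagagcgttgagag
Abca15 (chr7:120328584-120328708, plus strand): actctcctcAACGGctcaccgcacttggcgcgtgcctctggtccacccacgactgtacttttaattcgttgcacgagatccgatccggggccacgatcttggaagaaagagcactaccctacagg
Abca16 (chr7:120409547-120409671, plus strand): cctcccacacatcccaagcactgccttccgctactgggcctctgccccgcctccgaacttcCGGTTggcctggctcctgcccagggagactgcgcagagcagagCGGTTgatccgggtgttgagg
Abca17 (chr17:24351035-24351159, minus strand): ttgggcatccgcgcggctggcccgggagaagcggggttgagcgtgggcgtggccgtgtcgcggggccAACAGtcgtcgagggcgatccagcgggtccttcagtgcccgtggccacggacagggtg
In windows of 250 bases before to 50 bases after the start, AACNG was present in 40 of 45 windows of 38 ABC members with an entry and in 80.3% of all 32851 windows of the table. It was present in 13 of 14 windows of members that fell and in 14 of 16 windows of members that rose. The cyclic AMP response core TGACG, searched on both strands, was present in 4 of 14 windows of members that fell, 2 of 16 windows of members that rose, 0 of the 4 windows of the genes shown and 20.8% of all windows. Such matches describe letters and do not show binding.

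Across the family 22 members rose in dsfb testes and 14 fell, while 9 did not pass the test (edgeR quasi-likelihood test, Benjamini-Hochberg adjusted p under 0.05 over all genes tested). Of the 19826 genes tested, 30.7% rose and 36.2% fell, so 66.9% passed in either direction; of the tested members 48.9% rose and 31.1% fell. With library size as the only scaling, 29 members rose and 11 fell. By at least 2-fold, 9 members fell and 12 rose, beside 26.8% and 13.2% of all genes tested, or 39.9% in either direction. The largest fall was at least 3114-fold and the largest rise 6.39-fold. The median log2 fold change of the tested members was 0.54, beside 0.02 over all genes tested. In 38 of the 45 tested members the control and dsfb libraries did not overlap in CPM, as in 74.7% of all genes tested. The family as a whole took 0.226 ± 0.00101% of all counted reads, without scaling, in control and 0.234 ± 0.00126% in dsfb (SD, n = 3). In TMM-scaled CPM the members summed to 2524, 2604 and 2686 in control and to the lower 2046, 2064 and 2027 in dsfb. The sums over all genes tested were likewise lower in dsfb, so this drop was not particular to the family. They were 1114240, 1142230 and 1185350 in control and 877561, 878324 and 859981 in dsfb.

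**Figure D1:**
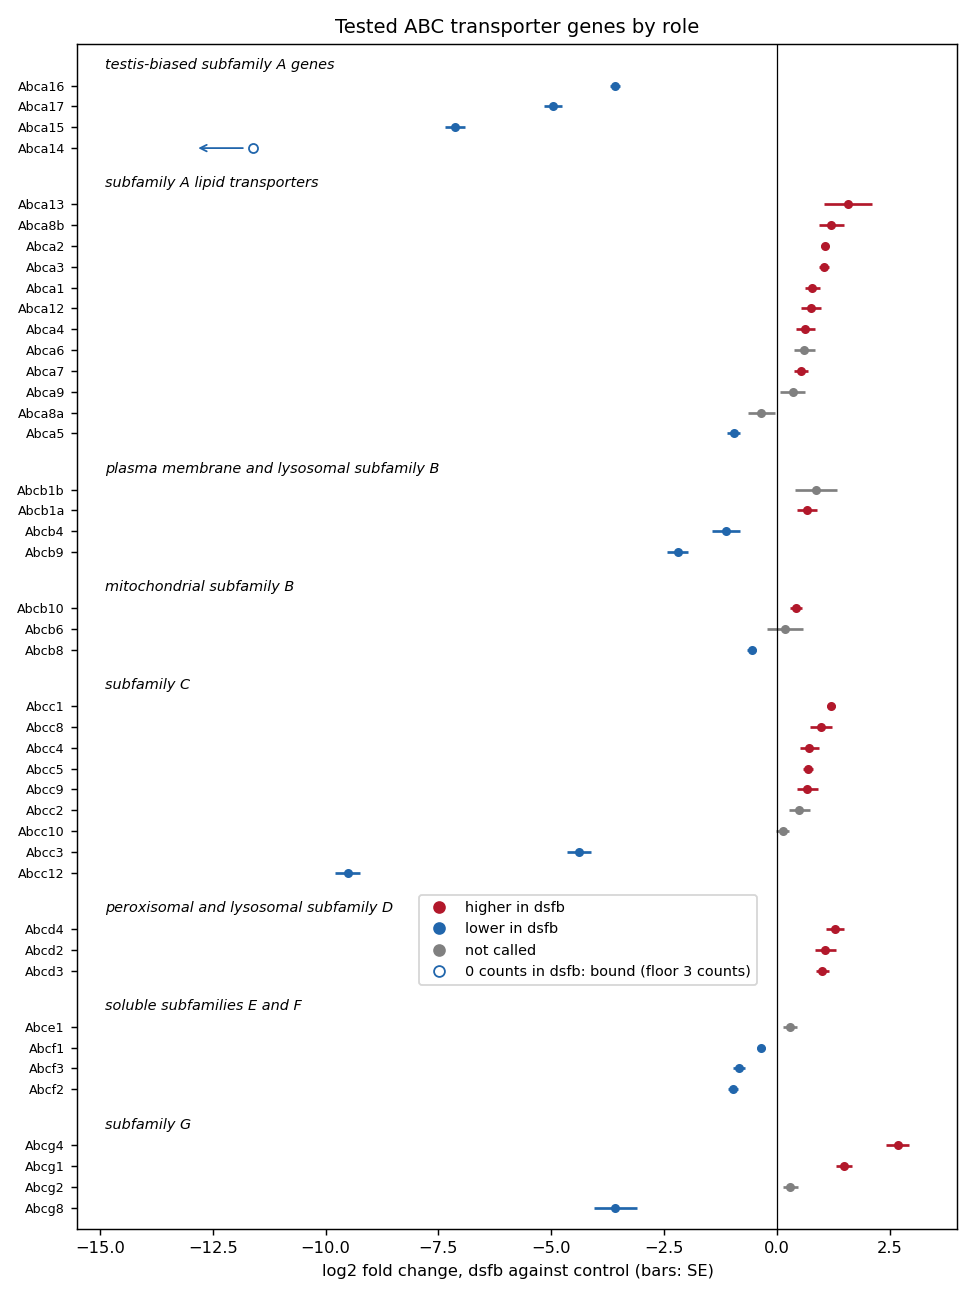
Log2 fold change of the tested ABC transporter genes reported here, dsfb against control, grouped by role, with bars of 1 SE and colours for members that rose, fell or did not pass. The open circle with an arrow is Abca14, drawn at its lower bound because it had 0 counts in dsfb; the subfamily D genes drawn lie to the right of 1, up to 1.28.

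The 4 subfamily A genes known in the mouse mainly from testis all fell. Abca14, the first gene of a tandem row, had 151, 177 and 174 CPM in the control libraries, in replicate order, and 0 counts in every dsfb library. With a floor of 3 counts over the dsfb group it was at least 3114-fold lower (edgeR adjusted p = 6.02e-07), a bound that covers counting error only. Abca15, the next gene on chromosome 7, was at 71.3, 84.8 and 83.7 CPM in control and at 0.356, 0.746 and 0.594 CPM in dsfb. It fell 141-fold (log2 -7.14, SE 0.22, edgeR adjusted p = 3e-07). Abca16, the third gene of the row, had the smallest fall of the row. It was at 139, 163 and 151 CPM in control and at 11.9, 12.2 and 13.7 CPM in dsfb, a 12.0-fold fall (log2 -3.58, SE 0.11, edgeR adjusted p = 2.77e-07). Per length, Abca14, Abca15 and Abca16 were at 28.4 ± 2.39, 14.4 ± 1.36 and 21.1 ± 1.68 RPKM in control (SD, n = 3) and at 0, 0.102 ± 0.0354 and 1.76 ± 0.135 RPKM in dsfb.

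Abca17, studied in mice as a lipid-handling transporter of the testis, was at 94.3, 113 and 145 CPM in control and at 3.35, 4.25 and 3.67 CPM in dsfb. The groups were far apart, and the fall was 31.3-fold (log2 -4.97, SE 0.20, edgeR adjusted p = 9.26e-07). Its neighbour Abca3 starts 881 bases away on the other strand of chromosome 17 and moved the other way, as described below.

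Falls of more than 20-fold were also found in Abcc12 and Abcc3 of subfamily C. Abcc12 encodes MRP9, a protein of male germ cells and sperm, and its 3 control libraries held 205, 247 and 310 CPM against 0.203, 0.459 and 0.378 CPM in dsfb. It fell 729.7-fold (log2 -9.51, SE 0.28, edgeR adjusted p = 2.48e-07), and at 38.2 ± 7.96 RPKM it had been the third most abundant member per length in control testes. Abcc3, which exports glucuronides and bile acids in liver and gut, was at 64.2, 68.0 and 98.6 CPM in control and at 4.06, 2.58 and 4.32 CPM in dsfb, a 20.9-fold fall (log2 -4.39, SE 0.26, edgeR adjusted p = 6.1e-06). Together with Abca14 to Abca17, both genes supplied 32.4 ± 3.58% of all reads of the family in control and 1.02 ± 0.0827% in dsfb (SD, n = 3).

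**Figure D2:**
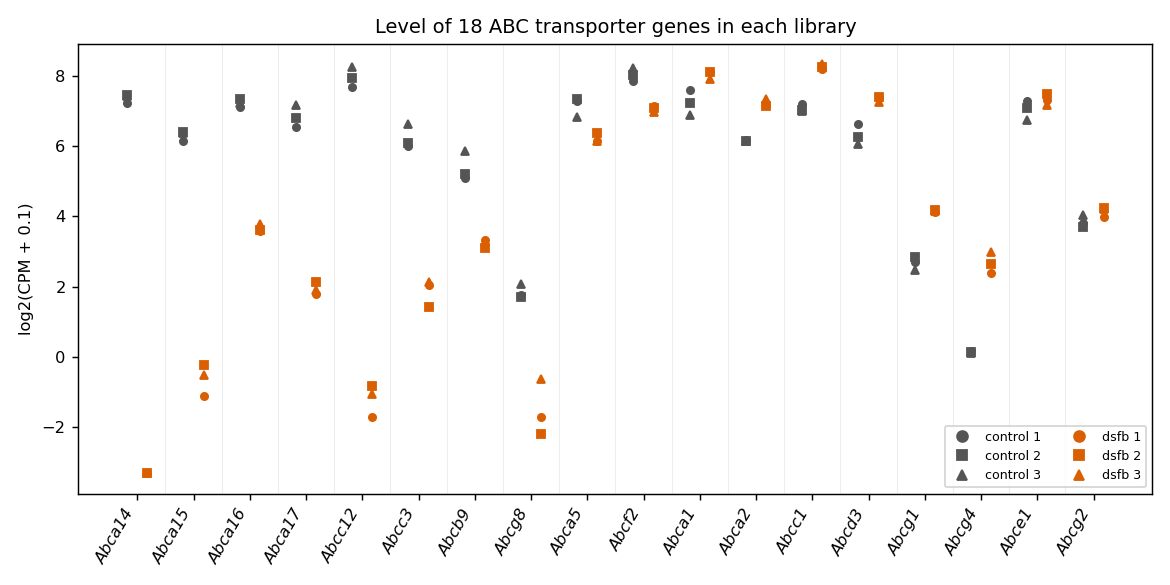
Level of 18 ABC transporter genes in each library, as log2 of CPM plus 0.1, with control libraries in grey and dsfb libraries in orange and a symbol for each replicate number. Abca14 lies at the bottom in all 3 dsfb libraries (0 counts), the Abcg4 libraries do not overlap, and those of Abce1 and Abcg2 do.

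Falls were also found in Abcb9, Abcg8, Abcb4 and Abca5. Abcb9, the peptide transporter of lysosomes, was at 33.8, 37.1 and 58.3 CPM in control and at 9.96, 8.49 and 9.61 CPM in dsfb (4.60-fold lower, log2 -2.20, SE 0.23, edgeR adjusted p = 0.000111). Abcg8, whose protein pairs with that of Abcg5 to export plant sterols, was low in control, at 3.30, 3.14 and 4.08 CPM, and had 4, 2 and 10 counts in the dsfb libraries. It fell 12.0-fold (log2 -3.58, SE 0.48, edgeR adjusted p = 0.000405), or by 4.38 on the log2 scale without dsfb replicate 3, and Abcg5 was too low to be tested. Abcb4, the phosphatidylcholine exporter of bile, went from 5.96 ± 0.977 to 2.73 ± 0.966 CPM (log2 -1.13, SE 0.30, edgeR adjusted p = 0.012), and did not pass with library size as the only scaling (edgeR adjusted p = 0.0598). Abca5, a lysosomal member, went from 145 ± 26.2 to 74.8 ± 6.92 CPM (log2 -0.96, SE 0.15, edgeR adjusted p = 0.000849). Abcg5 and Abcg8 share 82 exonic bases on opposite strands, and Abcb9 shares 162 with a lincRNA gene on the other strand; the sources do not say if counting used strand, so these values are less certain. The same holds for Abca8b, Abcb10, Abcc9 and Abcc10, which overlap genes on the other strand.

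Markers of late germ cells also fell. Each of the 8 pachytene markers listed fell, beside 36.2% of all genes tested, from a summed 6595 to 8969 CPM in control to 41.5 to 53.1 CPM in dsfb. Their log2 fold changes were -12.4 to -5.83 (median -7.95), larger falls than those of Abcb9, Abcg8, Abcb4 and Abca5. All 9 tested of 10 spermatid markers fell, as did all 7 that were tested without control replicate 3. Over the dsfb group no pachytene marker had 0 counts, and the spermatid marker Catsper1 did; Tnp1, Prm1 and Prm2 had 0 counts in at least 1 dsfb library. Control replicate 3, highest in spermatid markers, was also the highest control library for Abcc12, Abca17, Abcc3 and Abcb9, at 1.37, 1.40, 1.49 and 1.64 times the mean of control replicates 1 and 2, and the ratios for Abca14 and Abca15 were 1.06 and 1.07, while for Abca16 that library lay between the other controls. Without that library the log2 fold changes of Abcc12, Abca17, Abcc3 and Abcb9 were -9.37, -4.82, -4.20 and -1.95. The part of germ cell numbers in the falls was not tested.

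Lipid transporters of subfamily A rose more often than they fell, and subfamily G was mixed. In subfamily G Abcg1 and Abcg4 rose, Abcg8 fell and Abcg2 did not pass. Of the 12 subfamily A lipid transporters 8 rose, 1 fell (Abca5) and 3 did not pass, beside 30.7% rises and 36.2% falls among all genes tested. Over all settings that were run 4 to 10 of these transporters rose and 1 to 2 fell. Abca1, which loads cholesterol and phospholipid onto apolipoprotein A-I, was at 193, 152 and 120 CPM in control and at 280, 278 and 241 CPM in dsfb, so that the lowest dsfb library lay above the highest control library (log2 0.78, SE 0.17, edgeR adjusted p = 0.00446). Abca2, an endolysosomal transporter linked to sphingolipid and sterol traffic, was at 72.8, 71.6 and 71.2 CPM in control and at 144, 141 and 163 CPM in dsfb (log2 1.06, SE 0.09, edgeR adjusted p = 3.26e-05). Abca3, the phospholipid carrier of lung lamellar bodies, went from 21.4 ± 1.15 to 44.1 ± 3.86 CPM (log2 1.04, SE 0.12, edgeR adjusted p = 0.00016), and shares 914 exonic bases with a transcript on the other strand.

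The other rises of this group were in members at low levels. Abca8b rose from 1.91 ± 0.213 to 4.40 ± 1.26 CPM (log2 1.20, SE 0.28, edgeR adjusted p = 0.00598). Abca13 was at 0.372, 0.124 and 0.464 CPM in control and at 0.711, 0.746 and 1.40 CPM in dsfb (log2 1.58, SE 0.54, edgeR adjusted p = 0.0324). It passed without control replicate 3 and did not pass when any other library was left out. Abca4, Abca7 and Abca12 had log2 fold changes between 0.54 and 0.76. With control replicate 1 or 2, or dsfb replicate 1 or 2, left out, 5 lipid transporters of subfamily A rose instead of 8, and Abca4 was not called in any of the 6 fits that left out a library. Abca6, Abca8a and Abca9 did not pass (log2 0.61, -0.35 and 0.35). Without control replicate 3 Abca6 rose and Abca8a fell, so that 2 members of the group fell.

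In subfamily G, Abcg4 had the largest rise of the tested members. This partner of Abcg1 in cholesterol export was at 1.02, 0.991 and 0.973 CPM in control and at 5.18, 6.20 and 7.83 CPM in dsfb (6.39-fold, log2 2.68, SE 0.25, edgeR adjusted p = 6.73e-05). Abcg1, which passes cholesterol to high-density lipoprotein, was at 6.38, 7.14 and 5.42 CPM in control and at 17.5, 18.01 and 17.7 CPM in dsfb (2.80-fold, log2 1.49, SE 0.17, edgeR adjusted p = 0.000202). All dsfb libraries lay above all control libraries for both genes. Abcg2, the drug and urate pump of barrier tissues, was at 13.8, 12.8 and 16.2 CPM in control and at 15.6, 18.8 and 18.3 CPM in dsfb; the groups overlapped and it did not pass (log2 0.30, SE 0.16, edgeR adjusted p = 0.137, or 0.0226 without control replicate 3). Abcg3, like Abcg5, was not tested.

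Partner genes of sterol handling, listed by their known roles, moved in the same direction as Abca1 and Abcg1. Of 19 tested genes 14 rose, 1 fell and 4 did not pass (median log2 fold change 0.73). The rises and falls are 73.7% and 5.26%, beside 30.7% and 36.2% of all genes tested. Npc2 and Npc1, which release cholesterol from lysosomes, rose by 0.71 (SE 0.07, edgeR adjusted p = 0.000103) and 1.09 (SE 0.12, edgeR adjusted p = 0.000167) on the log2 scale, and Scarb1, the receptor for high-density lipoprotein, rose by 0.73 (SE 0.08, edgeR adjusted p = 0.000197). Without control replicate 3 there were 16 rises and 2 falls. The sterol sensors Nr1h2 and Nr1h3, encoding the liver X receptors that activate Abca1 and Abcg1, did not pass, at log2 fold changes of 0.30 and -0.23. Npc1 shares exonic sequence with other genes.

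Abcd2, Abcd3 and Abcd4 of subfamily D rose, and this held under every alternative that was run. Abcd2, a peroxisomal importer of long acyl chains, went from 10.6 ± 3.30 to 22.2 ± 1.28 CPM (log2 1.07, SE 0.23, edgeR adjusted p = 0.00465). Abcd3, the abundant peroxisomal membrane protein that imports branched-chain and bile acid precursors, was at 99.8, 77.1 and 67.1 CPM in control and at 166, 169 and 155 CPM in dsfb (log2 1.01, SE 0.15, edgeR adjusted p = 0.000619). Abcd4, which works with cobalamin in lysosomes rather than peroxisomes, went from 3.10 ± 0.373 to 7.54 ± 0.577 CPM (log2 1.28, SE 0.20, edgeR adjusted p = 0.00101). Subfamily D took 4.44 ± 0.691% of family reads in control and 11.7 ± 0.059% in dsfb (SD, n = 3).

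Of 20 tested peroxisomal partner genes 6 rose, 5 fell and 9 did not pass (median log2 fold change 0.29). Among all genes tested 30.7% rose and 36.2% fell. With control replicate 3 left out 7 of these partner genes rose and 6 fell. Acox3, an oxidase of branched acyl chains, fell by 2.07 (SE 0.18, edgeR adjusted p = 4.31e-05) and Mmachc, which receives cobalamin exported from lysosomes, fell by 1.36 (SE 0.12, edgeR adjusted p = 4.28e-05) on the log2 scale. Acaa1a, the peroxisomal thiolase, rose by 0.66 (SE 0.09, edgeR adjusted p = 0.000472). Acox3 and Acaa1a share exonic sequence with other genes.

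**Figure D3:**
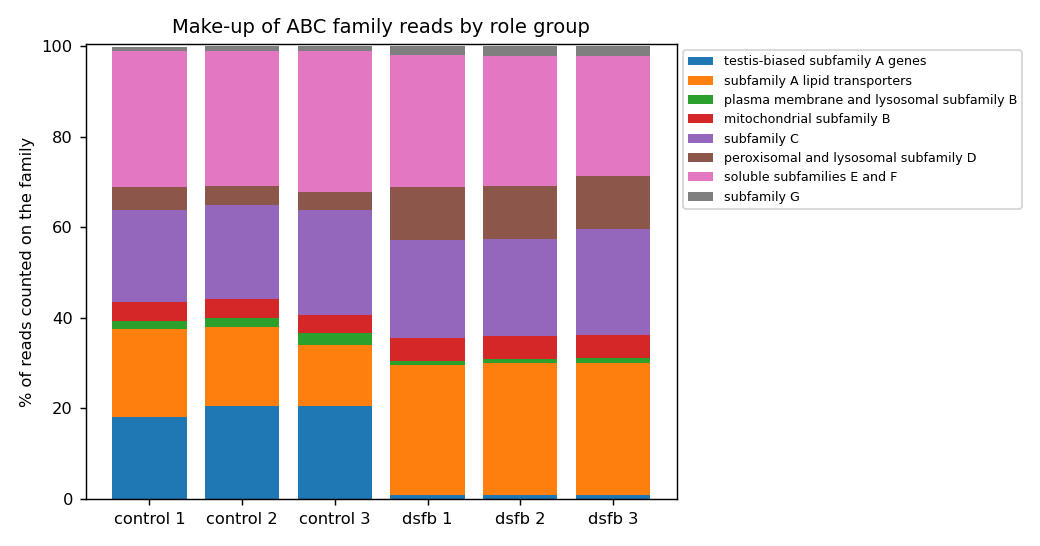
Share of reads counted on the ABC family that fell in each role group, in percent, with 1 bar per library. The testis-biased subfamily A genes averaged 19.8% in the control libraries and 0.828% in the dsfb libraries, and subfamily D 4.44% and 11.7%.

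Drug pumps and anion exporters of the B and C subfamilies were mixed. Abcc1 encodes MRP1, which exports glutathione conjugates and leukotrienes, and was at 147, 131 and 129 CPM in control and at 297, 307 and 323 CPM in dsfb (2.28-fold, log2 1.19, SE 0.09, edgeR adjusted p = 2.12e-05). The replicates lay close together in both groups, and in dsfb it ranked seventh of the family per length, at 20.5 ± 0.887 RPKM. Abcc4, Abcc5, Abcc8 and Abcc9 also rose, with log2 fold changes between 0.67 and 0.97; Abcc4 and Abcc5 export cyclic nucleotides, and Abcc8 and Abcc9 encode the sulfonylurea receptors of potassium channels. Without dsfb replicate 1 or 3 the number of subfamily C members that rose was 3 instead of 5. Abcc2 and Abcc10 did not pass, and Abcc6 was not tested.

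P-glycoprotein, the drug pump of barrier tissues, has a pair of genes in mice. Abcb1a was at 5.17, 3.76 and 3.71 CPM in control and at 6.35, 6.25 and 7.51 CPM in dsfb (log2 0.67, SE 0.22, edgeR adjusted p = 0.0292), and it did not pass without control replicate 2 or without dsfb replicate 1, 2 or 3 (edgeR adjusted p from 0.057 to 0.0998). Abcb1b was at 1.44, 0.867 and 0.371 CPM in control and at 1.83, 1.66 and 1.40 CPM in dsfb; the groups overlapped and it did not pass (log2 0.87, SE 0.46, edgeR adjusted p = 0.13, or 0.0378 without control replicate 1). These are close paralogues between which reads could be divided, and both overlap genes on the other strand. Abcb5 and Abcb11, the bile salt export pump, were not tested; Abcb11 had 2, 3 and 27 counts in control replicates 1, 2 and 3 and 0 counts in dsfb, so that most of its control counts came from 1 library.

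Among detoxification partners of these pumps 10 of 18 tested genes rose, 2 fell and 6 did not pass (median log2 fold change 0.66). The rises and falls are 55.6% and 11.1%, beside 30.7% and 36.2% of all genes tested. Of the glutathione transferase genes, Gstm2 rose by 1.21 on the log2 scale (SE 0.11, edgeR adjusted p = 5.48e-05) and Gstm1 rose from 297 ± 29.9 to 594 ± 22.8 CPM (edgeR adjusted p = 1e-04). Gstm5, a relative of both, fell from 669 ± 59.3 to 36.5 ± 2.12 CPM (log2 -4.20, SE 0.11, edgeR adjusted p = 1.95e-07), and overlaps a gene on the other strand.

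Mitochondrial members of subfamily B moved in both directions. Abcb10, of heme synthesis, rose by 0.42 on the log2 scale (SE 0.13, edgeR adjusted p = 0.0211), and did not pass without control replicate 2 or without dsfb replicate 1, 2 or 3. Abcb8 fell from 72.7 ± 5.58 to 49.3 ± 3.25 CPM (log2 -0.56, SE 0.10, edgeR adjusted p = 0.00171), and did not pass with library size as the only scaling (log2 -0.16, edgeR adjusted p = 0.178). Abcb6, a porphyrin transporter that shares 55.2% of its exonic bases with a transcript on the same strand, did not pass.

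Partner genes of iron-sulfur and heme synthesis were also divided. Of 20 tested genes 8 rose and 8 fell (median log2 fold change -0.27). The scaffold genes Isca1 and Iscu fell by 1.26 (SE 0.11, edgeR adjusted p = 5.59e-05) and 1.11 (SE 0.11, edgeR adjusted p = 7.48e-05) on the log2 scale, and Ppox, an enzyme of heme synthesis, rose by 1.32 (SE 0.13, edgeR adjusted p = 7.24e-05). Isca1 and Ppox share exonic sequence with other genes.

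Of the 4 soluble members Abcf1, Abcf2 and Abcf3 fell and Abce1 did not pass. Per length Abcf2 led the family in both groups, at 103 ± 13.3 RPKM in control and 52.5 ± 3.39 RPKM in dsfb (SD, n = 3), and Abcf1 was next, at 59.1 ± 2.87 and 46.2 ± 1.82 RPKM. In CPM Abcf2 was at 232, 261 and 300.3 in control and at 143, 137 and 125 in dsfb (1.96-fold lower, log2 -0.97, SE 0.11, edgeR adjusted p = 0.000212). Abcf3 fell by 0.83 on the log2 scale (SE 0.13, edgeR adjusted p = 0.00095). Abcf1, which acts in translation initiation, fell by 0.36 (SE 0.08, edgeR adjusted p = 0.00572), a call lost with upper-quartile scaling and with library size as the only scaling. Abce1, which splits ribosomes after termination, was at 155, 136 and 107 CPM in control and at 160.4, 181 and 145 CPM in dsfb; the groups overlapped and it did not pass (log2 0.29, SE 0.15, edgeR adjusted p = 0.119).

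Of 20 tested translation partners of these proteins 6 rose, 7 fell and 7 did not pass (median log2 fold change -0.11). These shares were near the 30.7% and 36.2% of all genes tested. With control replicate 3 left out 6 rose and 9 fell. Hbs1l, of ribosome rescue, fell by 0.95 (SE 0.08, edgeR adjusted p = 4.17e-05) and Eif2s1, a subunit of initiation factor eIF2, by 1.12 (SE 0.10, edgeR adjusted p = 6.46e-05) on the log2 scale, while Y-linked Eif2s3y rose by 0.91 (SE 0.10, edgeR adjusted p = 0.000158). Hbs1l overlaps a gene on the other strand. Of 4 listed genes of the ABC fold and its partners that carry no Abc symbol, 3 rose and 1 fell: Tap1 and Tap2, which load peptides for antigen presentation, rose by 0.92 (SE 0.21, edgeR adjusted p = 0.0056) and 1.35 (SE 0.35, edgeR adjusted p = 0.0105), and the chloride channel gene Cftr fell from 24.9 ± 7.31 to 5.18 ± 0.847 CPM (log2 -2.26, SE 0.25, edgeR adjusted p = 0.00016). Without control replicate 1 or 2, or without dsfb replicate 1 or 2, 2 of these 4 genes rose instead of 3. All 4 share exonic sequence with other genes.

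Markers of Sertoli cells, spermatogonia and macrophages mostly rose, and those of other somatic and early germ cells did so in part. Beside the counts that follow, 30.7% of all genes tested rose and 36.2% fell. All 10 Sertoli markers rose, from a summed 2249.6 to 2969 CPM in control to 5246 to 5460.4 CPM in dsfb. Of 8 spermatogonial markers 7 rose (248 to 350.3 against 533 to 603 CPM), of 8 macrophage markers 6 (108 to 150 against 206 to 274 CPM), of 8 endothelial markers 4 (28.6 to 35.2 against 47.0 to 54.1 CPM), of 8 Leydig markers 4 (254 to 460.1 against 357 to 633 CPM) and of 6 peritubular markers 3 (225 to 311 against 356 to 485 CPM). The macrophage count was 3 without control replicate 2 or dsfb replicate 3, and the endothelial count 2 without dsfb replicate 1. Over the 6 fits that left out a library the Leydig count was 1 to 7. Leaving out control replicate 3 gave 7 macrophage and 4 peritubular rises. The 5 red blood cell markers had log2 fold changes of 0.31 to 1.78 with overlapping groups, and 1 rose without control replicate 3. Of 7 early meiotic markers 2 rose and 2 fell, with 5 falls without control replicate 3 and 1 rise without dsfb replicate 1. This list includes Hormad1, a gene that carries the SFB allele in dsfb mice, so it is not an independent marker here. Hormad1 did not pass with all libraries and was among the 5 falls without control replicate 3. No marker of these somatic and early germ cell lists had 0 counts in any library, and the part of cell composition in the rises was not tested.

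Members that adjoin each other in the genome (mm10, GRCm38) fell together on chromosome 7, and the rows on chromosomes 17, 11 and 5 that hold Abca17, Abca5 and Abcb4 were of mixed calls. Abca14 (chromosome 7, 120203961 to 120325352), Abca15 (120328670 to 120407687) and Abca16 (120409647 to 120544813), all on the plus strand and separated by 3317 and 1959 bases, all fell. Abca17 (chromosome 17, 24264259 to 24351068, minus strand) fell while Abca3 (24351950 to 24410201, plus strand), whose start faces it across 881 bases, rose. In the row of Abca8b, Abca8a, Abca9, Abca6 and Abca5 on chromosome 11 the first rose, the last fell and the others did not pass. On chromosome 5 Abcb1a rose, Abcb1b did not pass and Abcb4, 27401 bases from Abcb1b, fell. Abcb8 and Abcf2, which lie 155290 bases apart on the same chromosome, both fell. Abcc5 and Abcf3, 122182 bases apart on chromosome 16, moved in opposite directions: Abcc5 rose and Abcf3 fell.

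**Figure D4:**
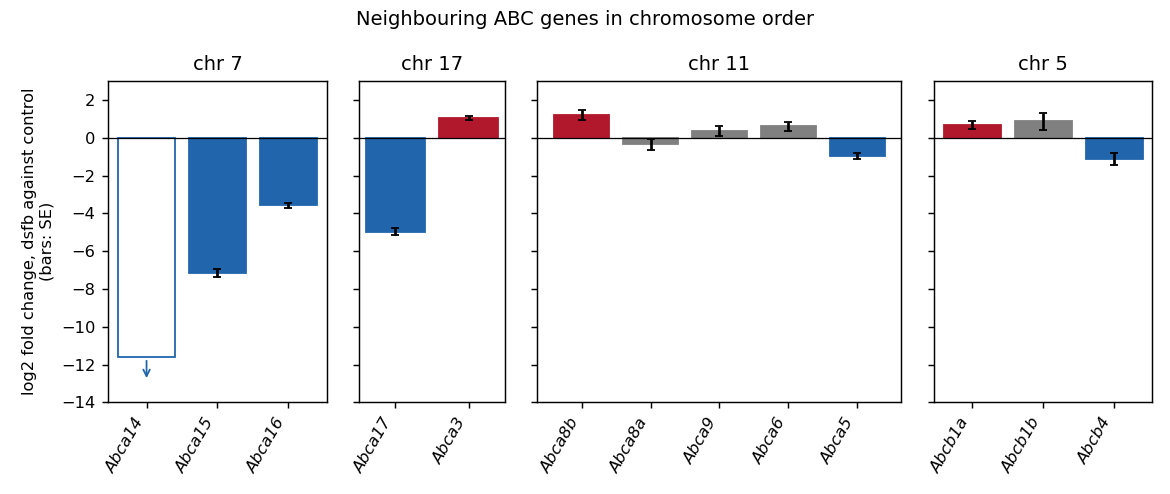
Log2 fold change, dsfb against control, of ABC genes that adjoin each other, in the order in which they lie on chromosomes 7, 17, 11 and 5, with bars of 1 SE. Red bars rose, blue bars fell and grey bars did not pass; the open bar of Abca14 ends at its lower bound because it had 0 counts in dsfb, and on chromosome 17 Abca17 (-4.97) and Abca3 (1.04) point in opposite directions.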

How the data were processed

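Polyadenylated RNA of 6 testis libraries was deposited by the authors as raw counts per Ensembl gene. STAR 2.6.0 and the genome build mm10 are named per the submitters' processing notes. The tool, annotation and strand setting behind the counts were not given in the sources used here. Symbols, positions and union exon lengths came from GENCODE M21, in which 260 of 55487 identifiers were not found, and promoter sequences came from RefSeq (GRCm38.p6).

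Counts were fitted with edgeR 4.0.16 in R 4.3.3: filterByExpr by group, TMM scaling, group as the only term, glmQLFit and glmQLFTest, with Benjamini-Hochberg adjustment over 19826 genes and a threshold of 0.05. Each SE was obtained by dividing the size of the log2 fold change by the root of the F statistic. CPM use TMM-scaled library sizes, and RPKM divide CPM by exonic length. Each group has n = 3. The p-values set the group difference against the variation between these libraries, estimated in part over all genes. On simulated counts of unchanged and changed genes the fit called 25 of 81 genes changed 1.5-fold, 52 of 64 changed 2-fold, 52 of 52 changed 4-fold and 4 of 19271 unchanged genes, at a fixed dispersion. Members, role groups, partner lists and markers were chosen with earlier results of these data known. Named members were those of the testis-biased group, 9 chosen by role (some of the genes the rule names are not reported here), and others that passed with at least 2-fold change; of each partner list the 3 with the smallest p were named. Listed names Znf598 and Gcn1 were matched as Zfp598 and Gcn1l1. Alternatives were other scalings, no filter, DESeq2 1.42.0, leaving out each library and a replicate block.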

Additional observations from a re-analysis of the deposited data

How the results depend on the processing

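No member called higher was called lower under any alternative that was run, or the reverse. With no filter beyond 1 read, 14 members rose instead of 22, with 8 of the 36 calls lost (Abca4, Abca7, Abca12, Abca13, Abcb1a, Abcb10, Abcc4 and Abcc9); the cause was not tested. With library size as the only scaling, 29 members rose and 11 fell, and 13 partner genes fell instead of 24. That scaling shifted the median over all genes tested by 0.396 (log2), and upper-quartile scaling shifted it by 0.278. Both scalings called Abce1 and Abcg2 higher. The median with no filter, -0.287, was taken over 38003 genes instead of 19826, so it is not a like comparison. Leaving out each library gave 16 to 23 rises and 14 to 15 falls among members, and 38 to 50 rises and 21 to 31 falls among partner genes. DESeq2 gave 20 rises and 14 falls. Correlations of deviations over genes between libraries of the same number were 0.0709, 0.0607 and 0.116, not every one above the 0.1 asked of pairs, so the numbers were not taken as pairs; with the number as a replicate block 24 members rose and 14 fell, Abca6 and Abce1 being the added rises, and each library correlated best with its own number, a hint from the data and not from the design. Depth limits Abcb5, Abcb11, Abcc6, Abcg3 and Abcg5, which had 8 to 32 counts over the 3 control libraries and were not tested.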
